A study of Mus musculus with 407 samples.

Results

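Expression of 6 genes of metallothionein and zinc transport, Mt1, Mt2, Mtf1, Slc39a14, Slc30a1 and Slc30a2, was examined in aging mouse skeletal muscle. The 6 were taken by name from the 24458 gene symbols of the count tables, and each had reads in every library. The libraries were total RNA of diaphragm (98), gastrocnemius (104), soleus (103) and tibialis anterior (102), from C57BL/6J mice of both sexes (203 male and 204 female libraries) aged 6, 12, 18, 21, 24 or 27 months, with 6 to 10 libraries for each sex, muscle and age. All animals were of this inbred strain, with no genotype or treatment difference among the groups, and the comparison was of every older age with 6 months within 1 sex and 1 muscle. By the paper, tissues of an age group were taken on a single day, so that age and day of collection cannot be told apart. Whether both sexes of an age shared that day is not stated. No label names the mouse that a muscle was taken from.

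Metallothioneins are small cysteine-rich proteins that bind zinc and copper and buffer their free levels in the cytosol. Mt1 and Mt2 encode the forms found in most tissues, and their transcription is induced by zinc, by glucocorticoids and by inflammatory signals. The inducing zinc is sensed by MTF1, a zinc-finger transcription factor that binds metal response elements in the promoters of Mt1, Mt2 and Slc30a1. SLC39A14 (ZIP14) carries zinc, iron and manganese into cells and is raised by interleukin-6 in liver, SLC30A1 (ZnT1) exports zinc across the plasma membrane, and SLC30A2 (ZnT2) moves zinc into vesicles.

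The promoters are shown because the metal response core is the sequence that would tie these genes to MTF1. RefSeq windows of GRCm38.p6 from 250 bases before to 50 bases after the transcription start were held for 5 of the 6 genes, all on the plus strand, and Slc39a14 had no entry. The start that the table used was the first base of the annotated gene for Mt2 and Mtf1, and lay 84 bases past it for Slc30a1, 206 for Mt1 and 420 for Slc30a2. The Slc30a2 window, with its 3 matches, thus lay wholly inside the annotated gene. The matches in the Mt1, Slc30a1 and Mtf1 windows also lay past the first base of the annotated gene, and only Mt2 had matches before it. The capitals mark matches to TGCNCNC on either strand, and overlapping matches run together. This is a loose form of the metal response core, which holds A or G after TGC. The windows are chr8:94178839-94179138 for Mt1, chr8:94172368-94172667 for Mt2, chr4:124802299-124802598 for Mtf1, chr1:191906531-191906830 for Slc30a1 and chr4:134343216-134343515 for Slc30a2.
Mt1: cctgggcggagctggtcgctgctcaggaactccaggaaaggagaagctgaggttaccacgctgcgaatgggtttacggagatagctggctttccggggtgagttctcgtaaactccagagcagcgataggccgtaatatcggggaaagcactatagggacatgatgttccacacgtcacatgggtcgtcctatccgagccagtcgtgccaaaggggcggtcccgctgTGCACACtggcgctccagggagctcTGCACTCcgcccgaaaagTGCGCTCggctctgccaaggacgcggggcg
Mt2: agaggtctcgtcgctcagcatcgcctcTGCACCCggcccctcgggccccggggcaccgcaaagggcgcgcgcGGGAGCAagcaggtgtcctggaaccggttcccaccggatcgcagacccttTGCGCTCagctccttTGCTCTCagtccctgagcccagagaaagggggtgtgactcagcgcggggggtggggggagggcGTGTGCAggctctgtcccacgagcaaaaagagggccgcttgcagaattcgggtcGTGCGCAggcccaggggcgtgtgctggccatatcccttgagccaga
Mtf1: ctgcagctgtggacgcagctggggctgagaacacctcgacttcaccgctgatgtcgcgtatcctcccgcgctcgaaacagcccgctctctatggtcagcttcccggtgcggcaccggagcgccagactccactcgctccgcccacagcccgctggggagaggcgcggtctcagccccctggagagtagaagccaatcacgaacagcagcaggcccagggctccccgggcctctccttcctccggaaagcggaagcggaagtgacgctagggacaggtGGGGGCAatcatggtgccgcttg
Slc30a1: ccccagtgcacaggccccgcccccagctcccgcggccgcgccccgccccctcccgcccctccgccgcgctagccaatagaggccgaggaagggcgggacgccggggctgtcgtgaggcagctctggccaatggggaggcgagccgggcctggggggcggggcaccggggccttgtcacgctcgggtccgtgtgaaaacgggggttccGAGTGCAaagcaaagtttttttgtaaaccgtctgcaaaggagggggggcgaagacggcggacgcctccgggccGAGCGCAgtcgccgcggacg
Slc30a2: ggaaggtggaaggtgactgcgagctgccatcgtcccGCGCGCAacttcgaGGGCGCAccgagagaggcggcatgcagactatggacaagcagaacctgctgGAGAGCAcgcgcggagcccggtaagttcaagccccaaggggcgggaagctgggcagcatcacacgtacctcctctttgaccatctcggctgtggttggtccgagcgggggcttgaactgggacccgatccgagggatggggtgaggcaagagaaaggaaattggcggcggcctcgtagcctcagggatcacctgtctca

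This loose form was matched 6 times in the Mt2 window, 3 times in Mt1 and Slc30a2, 2 times in Slc30a1 and once in Mtf1. The Mt2 matches GGGAGCA and TGCTCTC, the Slc30a2 match GAGAGCA and the only Mtf1 match, GGGGGCA, hold T or C after TGC on the matched strand. They are not matches to the core with A or G there. Because the windows lie differently against the annotated gene starts, these counts do not compare like stretches of the genes. A short pattern of this kind is common. Of 32851 promoter windows of the same length, 51.0% held at least 1 match, 20.2% at least 2, 7.1% at least 3 and 0.225% at least 6. A match to the NRF2 site TGACNNNGC, searched on both strands, was present in the Mt2 and Slc30a1 windows and in 12.4% of all windows. The palindromic glucocorticoid site, AGAACA and TGTTCT with 3 bases of any kind between them, was in none of the 5 windows and in 0.00913% of all windows. Mt1 (chr8:94178883-94180327) and Mt2 (chr8:94172618-94173567) lie beside each other, 5315 bases apart. The other genes are Mtf1 (chr4:124802549-124849800), Slc39a14 (chr14:70303467-70351452), Slc30a1 (chr1:191906697-191913248) and Slc30a2 (chr4:134343046-134354484).

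The libraries held 38583802 to 300089909 counted fragments (median 72766895). The lowest count of a member in any library was 6, for Slc30a2, and 54 for Mt1 and 11 for Mt2. Values are given as CPM, which is a gene's count relative to the library total, here after TMM scaling of that total. Striated muscle markers, summed over 8 genes, were at 6188 CPM or more in every library, and 5 pancreatic acinar genes summed to at most 5.98 CPM. A list of 10 hepatocyte genes summed to a median of 17.9 CPM in diaphragm and reached 27550 CPM in 1 male library at 21 months (replicate 3) and 10430 CPM in 1 at 27 months (replicate 6). In 7 diaphragm libraries, expression fell with the GC content of the transcripts, with a slope of -2.67 to -0.25 on the log2 scale per 10 points of GC, against -0.09 to 0.11 in the other 91. These were replicate 2 at 6 months in each sex, female replicates 0 at 21 months, 3 at 24 months and 0 at 27 months, and male replicate 6 at 24 and at 27 months. In the 7, Mt1 was at 1.41 to 6.55 CPM and Mt2 at 0.138 to 3.95 CPM, against 18.8 to 876 CPM and 4.05 to 570 CPM in the other diaphragm libraries. Mtf1 was at 16.4 to 23.0 CPM in the 7 and at 16.2 to 30.3 CPM in the others, so that the ranges overlapped for the sensor and not for the metallothioneins. The transporter ranges overlapped too, with Slc39a14 at 12.6 to 22.9 CPM in the 7 and 11.1 to 214 CPM in the others. Slc30a1 was at 14.5 to 21.9 and 10.6 to 25.2 CPM, and Slc30a2 at 0.849 to 2.20 and 0.152 to 3.28 CPM. Transcript GC content was 52.9% for Mt1, 55.6% for Mt2, 53.3% for Slc30a2, 51.7% for Slc39a14, 49.4% for Mtf1 and 46.2% for Slc30a1.

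**Figure D1:**
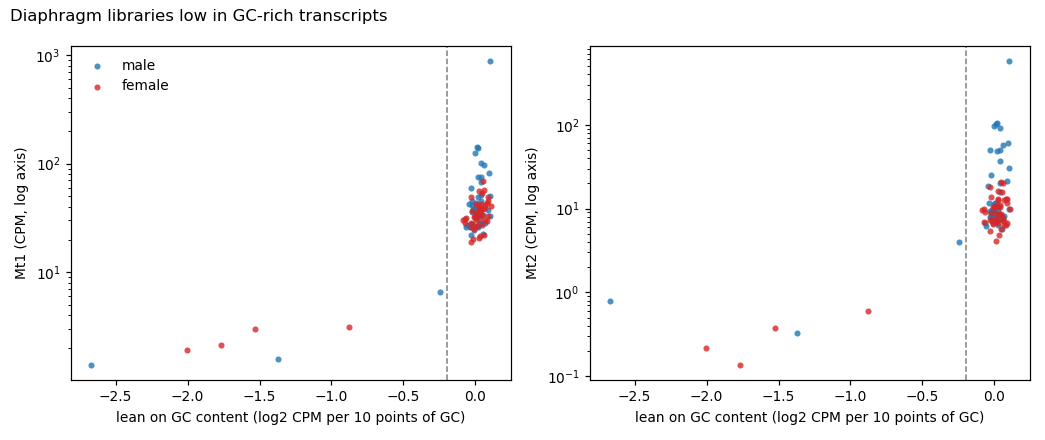
Mt1 (left) and Mt2 (right) levels (CPM, log axes) of each diaphragm library, male in blue and female in red, against the slope of its log2 CPM on transcript GC content (log2 per 10 points of GC), with a dashed line at the limit of -0.2. The 7 libraries left of the line held Mt1 at 1.41 to 6.55 CPM and Mt2 at 0.138 to 3.95 CPM, under every other diaphragm library.

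Compared per kilobase of exon, the metallothioneins were the most abundant of the 6. Over all libraries the median level was 14.3 CPM per kb for Mt1 and 11.2 for Mt2, then 3.45 for Mtf1, 2.49 for Slc30a1, 1.41 for Slc39a14 and 0.369 for Slc30a2. The Mt1 and Mt2 ranges overlapped almost whole, and in gastrocnemius and tibialis anterior their order was turned (7.87 and 8.60, 5.26 and 5.68 CPM per kb). This order rests on the lengths used, which were all GENCODE exons joined (1246 bases for Mt1, 588 for Mt2), while the counts used a RefSeq-based model. By CPM without lengths, the median ratio of Mt1 to Mt2 was 1.78 to 3.66 over the sex and muscle combinations. Mt1 was highest in diaphragm with 27.2 CPM per kb, followed by soleus with 17.9, gastrocnemius with 7.87 and tibialis anterior with 5.26.

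The muscles were compared over all 48 groups by the quasi-likelihood test of edgeR, and p-values were adjusted over 17580 genes by the Benjamini-Hochberg method. Called means a fold over 1.5 and an adjusted p under 0.05. Mt1 was lower in gastrocnemius than in diaphragm by a log2 difference of -1.60 ± 0.13 (SE), lower in tibialis anterior than in diaphragm (-2.04 ± 0.14) and lower in tibialis anterior than in soleus (-1.53 ± 0.13), and higher in soleus than in gastrocnemius (1.09 ± 0.13). Mt2 was called in the same 4 contrasts, with smaller differences (-0.88 ± 0.18, -1.17 ± 0.18, -1.05 ± 0.18 and 0.76 ± 0.18). Soleus and diaphragm did not differ past the limit in either gene (-0.51 ± 0.13 for Mt1, -0.12 ± 0.18 for Mt2), although without the 7 diaphragm libraries the Mt1 difference was called (-0.60). Slc30a2 was called in 4 contrasts, higher in gastrocnemius (1.18), soleus (0.81) and tibialis anterior (0.59) than in diaphragm and lower in tibialis anterior than in gastrocnemius (-0.59), as averages over 2 sexes with very unequal levels. Scaled by median-ratio size factors, its tibialis anterior and diaphragm difference was 0.49 and under the fold limit. Mtf1, Slc39a14 and Slc30a1 had no difference past 1.5-fold among the muscles, the widest being 0.54 for Mtf1 between tibialis anterior and diaphragm. In all, 12 of 36 contrasts were called, where 51.8% of genes were called for gastrocnemius against diaphragm, 38.8% for soleus against diaphragm, 53.8% for tibialis anterior against diaphragm, 30.3% for soleus against gastrocnemius, 16.2% for tibialis anterior against gastrocnemius and 32.3% for tibialis anterior against soleus. The share of 12 in 36 lay within the range of these background shares.

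Mt1 or Mt2 was called higher at an older age in 7 of the 8 sex and muscle combinations. In male diaphragm, soleus and tibialis anterior and in female soleus, the Mt1 and Mt2 calls ended when 1 library was left out. Limma-voom called no member in males. No member was called lower with age. Of 48 tests (6 genes, 4 muscles, 2 sexes), 14 were called higher at 1 or more older ages, 7 in each sex. Mt2 accounted for 7, Mt1 for 4, Slc30a2 for 2 and Slc39a14 for 1. The count called lower was 0 by edgeR, limma-voom and DESeq2, with 6, 7 and 6 of the 48 tests at an unadjusted p under 0.05. The share of all genes called lower was not computed, so this count has no background beside it. In males 3 of 6 genes were called in diaphragm, where 8.02% of all genes rose, 2 in gastrocnemius (5.91%), 1 in tibialis anterior (6.34%) and 1 in soleus (2.17%). In females 3 were called in gastrocnemius (7.66%), 1 in tibialis anterior (7.0%) and 3 in soleus (3.04%). In female diaphragm, where 1.01% rose, 0 were called by edgeR, limma-voom or DESeq2, with 3 genes at an unadjusted p under 0.05 by each. In bulk muscle RNA, more cells of a type and more RNA per cell cannot be told apart.

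**Figure D2:**
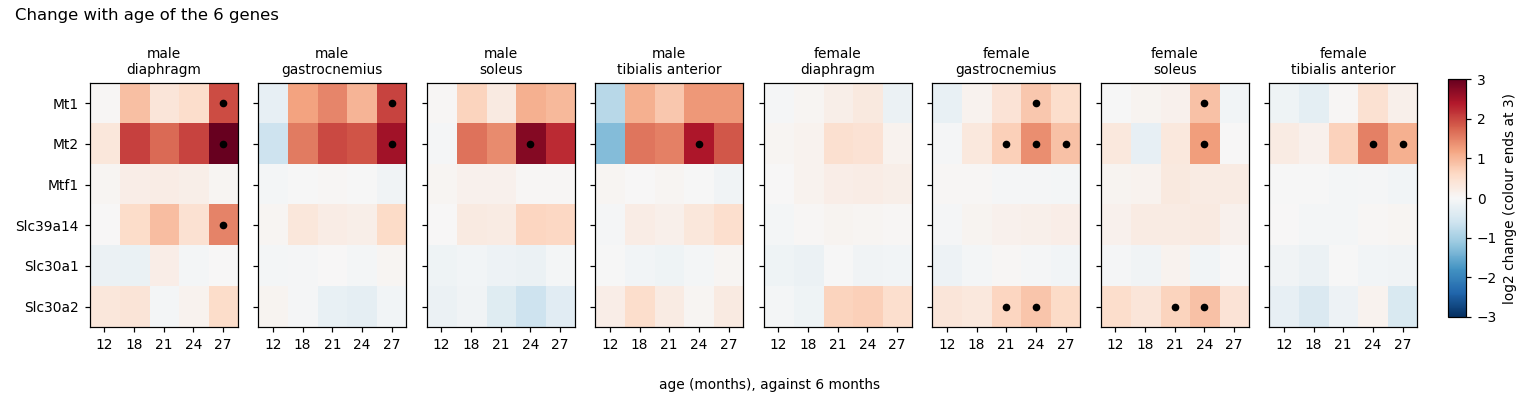
Log2 change from 6 months (colour, ending at ±3) of the 6 genes at each older age in each muscle and sex, with a dot where the change passed 1.5-fold and an adjusted p of 0.05. The dots lie on Mt1, Mt2, Slc39a14 and Slc30a2, and all of them are on increases.

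In males the rise of the metallothioneins was carried by part of the libraries. In gastrocnemius Mt1 was at 6.91, 9.06 and 17.2 CPM (lowest, median and highest of 8) at 6 months and at 6.93, 14.3 and 138 CPM (of 10) at 27 months. The lowest values were close, and 4 of the 10 old libraries lay above every young one. The log2 change was 2.03 ± 0.54 (edgeR adjusted p = 0.00398). For Mt2 the values were 2.93, 3.56 and 13.5 CPM at 6 months and 4.94, 8.03 and 118 CPM at 27 months, again with overlapping groups, and the change was 2.52 ± 0.70 (edgeR adjusted p = 0.00639). At 18 and 21 months the medians of Mt1 in this muscle were 22.0 and 21.5 CPM, higher than at 24 months (9.90 CPM), with 4 of 8, 4 of 8 and 4 of 10 libraries above all of the 6-month group. The level therefore did not climb step by step with age. Without replicate 1 at 27 months the changes were 1.60 and 1.97, still called (edgeR adjusted p = 0.0193 and 0.0296).

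In male diaphragm the spread was wider still. Mt1 was at 1.41, 36.1 and 49.0 CPM (of 8) at 6 months and at 1.59, 30.4 and 876 CPM (of 10) at 27 months, and Mt2 at 0.783, 8.15 and 11.8 CPM and at 0.332, 9.02 and 570 CPM. The medians differed little, while 4 old libraries held more Mt1 than any at 6 months. The log2 changes were 1.97 ± 0.65 for Mt1 and 3.40 ± 0.86 for Mt2 (edgeR adjusted p = 0.0475 and 0.0131). The highest values belonged to replicate 8, in which the hepatocyte genes summed to 2.35 CPM. Without it the changes were 0.55 for Mt1 and 1.83 for Mt2 (edgeR adjusted p = 0.594 and 0.113). Without replicate 2 at 6 months, one of the 7 libraries low in GC-rich transcripts, the Mt1 change was 1.77 (edgeR adjusted p = 0.0682). Without all 7 such libraries Mt1 and Mt2 were called, at 1.92 and 3.36.

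In male soleus and tibialis anterior Mt2 was called at 24 months and not at 27 months. In soleus it was at 2.12, 6.31 and 16.7 CPM at 6 months and at 2.81, 7.26 and 252 CPM at 24 months, a change of 2.76 ± 0.77 (edgeR adjusted p = 0.0287). In tibialis anterior it was at 1.61, 2.30 and 26.3 CPM and at 2.27, 6.47 and 159 CPM, a change of 2.43 ± 0.85 (edgeR adjusted p = 0.043). The groups overlapped in both muscles, with 4 and 3 of 10 libraries above every 6-month value. Replicate 8 was the highest at 24 months in each, and without it the changes were 1.88 and 1.45 (edgeR adjusted p = 0.151 and 0.249). At 27 months the changes were 2.25 ± 0.75 and 1.87 ± 0.83 (edgeR adjusted p = 0.0963 and 0.113). Limma-voom, which works on log values, called none of the 7 male results, with log2 changes of 0.65 to 1.70 for these 6 of Mt1 and Mt2, and called 5 of the 7 female ones. With the run of consecutive sample numbers added as a term, some runs holding a single age, 5 of the 7 male changes no longer passed at the same age and 3 turned negative (-0.14 for Mt1 in diaphragm, -0.55 for Mt2 in soleus and -0.31 for Mt2 in tibialis anterior).

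**Figure D3:**
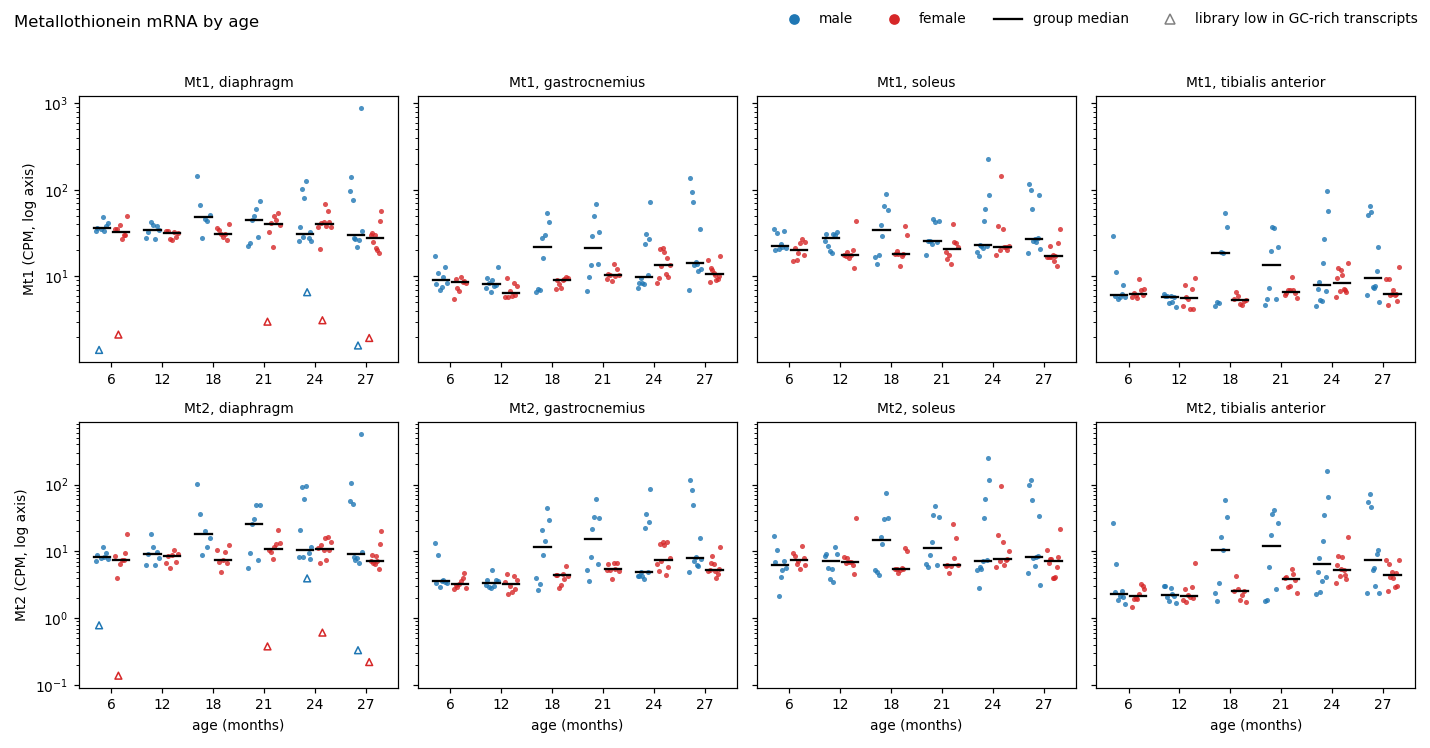
Mt1 and Mt2 levels (CPM, log axis) of every library by age in months, for each muscle and sex, with black bars at the group medians and triangles for the 7 libraries low in GC-rich transcripts. The older male groups spread upward, and Mt1 reached 876 CPM in male diaphragm and 145 CPM in female soleus.

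The high male libraries carried the same sample labels in the 3 hindlimb muscles. At 27 months the 4 highest Mt1 values were those of replicates 1, 2, 3 and 8 in gastrocnemius (138, 95.5, 71.7 and 34.9 CPM), soleus (117, 99.5, 60.6 and 86.5 CPM) and tibialis anterior (51.8, 64.9, 55.7 and 22.0 CPM). The other 6 lay at 6.93 to 14.8, 18.7 to 27.5 and 5.00 to 11.6 CPM, so that the 4 stood clear of the rest in each muscle. At 24 months the 4 highest were replicates 5, 6, 8 and 9 in all 3 muscles, at 23.6, 30.7, 27.1 and 72.6 CPM in gastrocnemius, 43.9, 59.9, 225 and 88.2 CPM in soleus and 14.4, 27.3, 97.9 and 57.2 CPM in tibialis anterior. In diaphragm the 4 highest at 27 months were replicates 8, 1, 0 and 2 (876, 140, 98.3 and 75.5 CPM), which is not the same set.

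This was followed over both sexes as the correlation of same-numbered libraries after the mean of each sex and age was removed, a relation chosen after the data had been seen. For Mt1, Pearson's r was 0.891 between gastrocnemius and tibialis anterior, 0.737 between gastrocnemius and soleus and 0.773 between soleus and tibialis anterior (Spearman's rho 0.873, 0.769 and 0.749). Each r had a two-sided permutation p of 1e-05, the smallest that 100000 resamples can give, and an adjusted p of 3e-05 over 36 relations. Without the 2 libraries farthest from the median r was 0.884, 0.709 and 0.815, and within runs of sample numbers it was 0.866, 0.686 and 0.719. In males alone r was 0.908, 0.863 and 0.901, and in females 0.698, 0.306 and 0.344. Mt2 gave 0.865, 0.803 and 0.813 and the importer Slc39a14 0.703, 0.686 and 0.792, while Mtf1 gave 0.32, 0.36 and 0.26. Pairs with diaphragm ran from -0.22 to 0.34 over the 6 genes, and none passed an adjusted p of 0.05. Over 10649 genes, a gastrocnemius library was most like the same-numbered tibialis anterior library of its group in 77 of 102 cases, whereas for pairs with diaphragm the share was 12.2 to 14.3%. The numbers thus link hindlimb libraries and not diaphragm libraries, although the labels name no mouse.

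**Figure D4:**
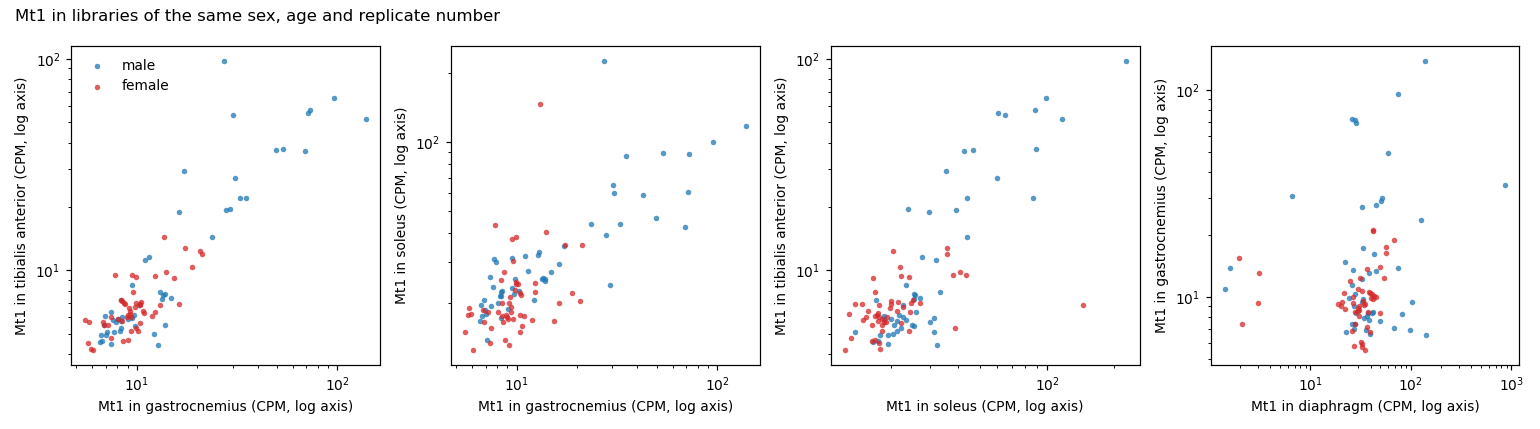
Mt1 level (CPM, log axes) of libraries with the same sex, age and sample number in the 3 pairs of hindlimb muscles and in diaphragm and gastrocnemius, with 1 point per pair of libraries (male in blue, female in red). Points of the hindlimb pairs rise together (r of residuals 0.891, 0.737 and 0.773), and those with diaphragm on the horizontal axis are scattered.

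In female gastrocnemius and tibialis anterior, most older libraries lay above the 6-month group for Mt2. In gastrocnemius it was at 2.75, 3.20 and 4.69 CPM at 6 months, 3.81, 5.42 and 6.75 CPM at 21 months, 4.40, 7.56 and 13.8 CPM at 24 months and 4.06, 5.32 and 11.6 CPM at 27 months. The groups overlapped little, with 7 of 8, 9 of 10 and 8 of 10 above every 6-month library. The log2 changes were 0.72 ± 0.21, 1.40 ± 0.20 and 0.89 ± 0.20 (edgeR adjusted p = 0.0125, 1.03e-06 and 0.00061). Mt1 was at 5.53, 8.49 and 9.95 CPM at 6 months and 8.48, 13.4 and 21.1 CPM at 24 months, with 7 of 10 above, and changed by 0.81 ± 0.15 (edgeR adjusted p = 8.26e-05). In tibialis anterior Mt2 was at 1.45, 2.15 and 3.30 CPM at 6 months and 3.41, 5.32 and 16.5 CPM at 24 months. All 10 of these older libraries were above all 8 young ones, and the change was 1.51 ± 0.27 (edgeR adjusted p = 5.57e-05), followed by 1.06 ± 0.27 at 27 months (edgeR adjusted p = 0.00275). Without the highest 24-month library (replicate 4 in gastrocnemius, 9 in tibialis anterior), the 24-month changes were 1.31 for Mt2 and 0.74 for Mt1 in gastrocnemius and 1.23 for Mt2 in tibialis anterior, all still called. Mt1 in female tibialis anterior was at 5.67, 6.24 and 9.25 CPM and at 5.74, 8.31 and 14.4 CPM at 24 months and was not called at any age.

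In female soleus the metallothionein calls rested on 1 library. Mt1 was at 15.0, 19.9 and 27.1 CPM at 6 months and 17.5, 22.0 and 145 CPM (of 9) at 24 months, and Mt2 at 5.50, 7.56 and 12.0 CPM and 5.78, 7.80 and 94.6 CPM. The medians were close and the groups overlapped. The changes of 0.89 ± 0.30 and 1.25 ± 0.44 (edgeR adjusted p = 0.0251 and 0.033) became 0.26 for each gene (edgeR adjusted p = 0.448 and 0.665) without replicate 3, which held both highest values.

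Between libraries of 1 group, the metallothioneins were among the most variable genes of male muscle. The biological coefficient of variation of Mt2 in males was 1.03 in diaphragm, 1.06 in tibialis anterior, 0.886 in gastrocnemius and 0.956 in soleus, above 95.0, 99.0, 96.1 and 89.5% of genes. In females it was 0.700, 0.370, 0.284 and 0.598, above 88.1, 90.6, 85.1 and 87.5% of genes. Mt1 gave 0.569 to 0.844 in males and 0.219 to 0.573 in females. The sensor was the opposite, with 0.0445 to 0.15 for Mtf1 over the 8 combinations, above 1.23 to 29.5% of genes.

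A linear trend on log2 age was called in 17 of 48 tests, 16 of them upward, and these tests also were not independent of each other. In males it was called for 2 of 6 genes in diaphragm (10.7% of all genes called in either direction), 3 in gastrocnemius (27.8%), 3 in tibialis anterior (20.5%) and 1 in soleus (5.71%). In females it was called for 0 in diaphragm (5.43%), 4 in gastrocnemius (32.7%), 2 in tibialis anterior (27.8%) and 2 in soleus (30.0%). Mt2 rose in all 4 male muscles, by 1.43, 1.23, 1.26 and 1.18 on the log2 scale per doubling of age (edgeR adjusted p = 0.00483, 0.000852, 0.00798 and 0.0131 in diaphragm, gastrocnemius, soleus and tibialis anterior), and by 0.58 in female gastrocnemius and 0.61 in female tibialis anterior (edgeR adjusted p = 6.78e-06 and 0.000123). Mt1 rose in male gastrocnemius (0.90), male tibialis anterior (0.73) and female gastrocnemius (0.35). Limma-voom called 10 of the trends, and the run of sample numbers as a term left 10. By limma-voom Mt2 was not called in male diaphragm (0.68), soleus (0.73) or tibialis anterior (1.06), with limma-voom adjusted p = 0.273, 0.239 and 0.0676. With the run as a term Mt2 was not called in male diaphragm (0.77, edgeR adjusted p = 0.187). Mt1 in male tibialis anterior was called under neither (0.55 by limma-voom, 0.69 with the run).

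Mtf1, the sensor, did not pass 1.5-fold at any age by edgeR, limma-voom or DESeq2, although 6 of its 8 tests held an unadjusted p under 0.05 by each tool. In female soleus it was at 19.3, 27.6 and 31.4 CPM at 6 months and 28.0, 31.9 and 34.3 CPM at 24 months, a log2 change of 0.24 (edgeR adjusted p = 0.0126), with 5 of 9 libraries above the young group. The changes at 21 and 27 months there were 0.29 and 0.24 (edgeR adjusted p = 0.00418 and 0.0151). In male diaphragm the change at 21 months was 0.23 ± 0.07 (edgeR adjusted p = 0.0293), and in female tibialis anterior the change at 27 months was -0.09 ± 0.03 (edgeR adjusted p = 0.0316). These were small shifts of opposite sign.

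Slc39a14, the importer, was called with age in male diaphragm. It was at 12.1, 14.2 and 17.2 CPM at 6 months and 11.8, 18.7 and 214 CPM at 27 months, and 5 of 10 old libraries lay above the young group. The change was 1.48 ± 0.40 (edgeR adjusted p = 0.0187). It was 0.53 (edgeR adjusted p = 0.232) without replicate 8, the library that also held the highest Mt1 and Mt2, although the gene then still passed at another older age. At 21 months the highest value was 77.9 CPM in the library with the most hepatocyte RNA (27550 CPM), and the part of that RNA in the value was not tested. In male gastrocnemius the 27-month values were 11.6, 15.1 and 39.9 CPM against 12.3, 13.4 and 17.8 CPM at 6 months, and the change of 0.58 ± 0.19 (edgeR adjusted p = 0.02) was just under the fold limit. The 4 libraries above every young one were replicates 1, 2, 3 and 8, at 39.9, 31.8, 27.3 and 33.5 CPM, the same as for Mt1. The trend was called in male diaphragm (0.57), gastrocnemius (0.21) and tibialis anterior (0.22) and in female gastrocnemius (0.10), where the values at 27 months were 11.3, 13.1 and 14.0 CPM against 9.55, 11.3 and 12.4 CPM.

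Slc30a1, the plasma membrane exporter, was not called with age in any muscle by edgeR, limma-voom or DESeq2, with 2 of 8 tests at an unadjusted p under 0.05 by each. Its medians per group stayed within 9.75 to 11.2 CPM in gastrocnemius, 11.9 to 13.3 CPM in tibialis anterior, 13.5 to 16.6 CPM in soleus and 13.1 to 16.9 CPM in diaphragm. The highest single value, 25.2 CPM, was in the male diaphragm library with the most hepatocyte RNA.

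Slc30a2, the vesicular transporter, was expressed very differently in the sexes. In gastrocnemius it was at 6.79, 11.8 and 18.3 CPM in 52 male libraries and at 0.218, 0.541 and 1.09 CPM in 52 female libraries. In tibialis anterior it was at 3.67, 7.29 and 13.5 CPM in males and 0.112, 0.380 and 0.676 CPM in females. The sexes did not overlap in either muscle. In soleus they overlapped in part, at 1.45, 3.15 and 6.29 CPM in males and 0.315, 1.14 and 2.47 CPM in females, with 14 females above the lowest male. In diaphragm the ranges lay over each other, at 0.607, 1.08 and 3.28 CPM and 0.152, 1.17 and 2.57 CPM. Averaged over the ages, the female minus male log2 difference was -4.35 ± 0.08 in gastrocnemius, -4.33 ± 0.10 in tibialis anterior and -1.47 ± 0.09 in soleus (edgeR adjusted p = 8.02e-72, 3.78e-61 and 1.84e-25), and 0.02 ± 0.11 in diaphragm (edgeR adjusted p = 0.946). Ranked from the most male-biased, Slc30a2 was gene 21 of 15732 in gastrocnemius, 13 of 14943 in tibialis anterior and 68 of 15903 in soleus.

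**Figure D5:**
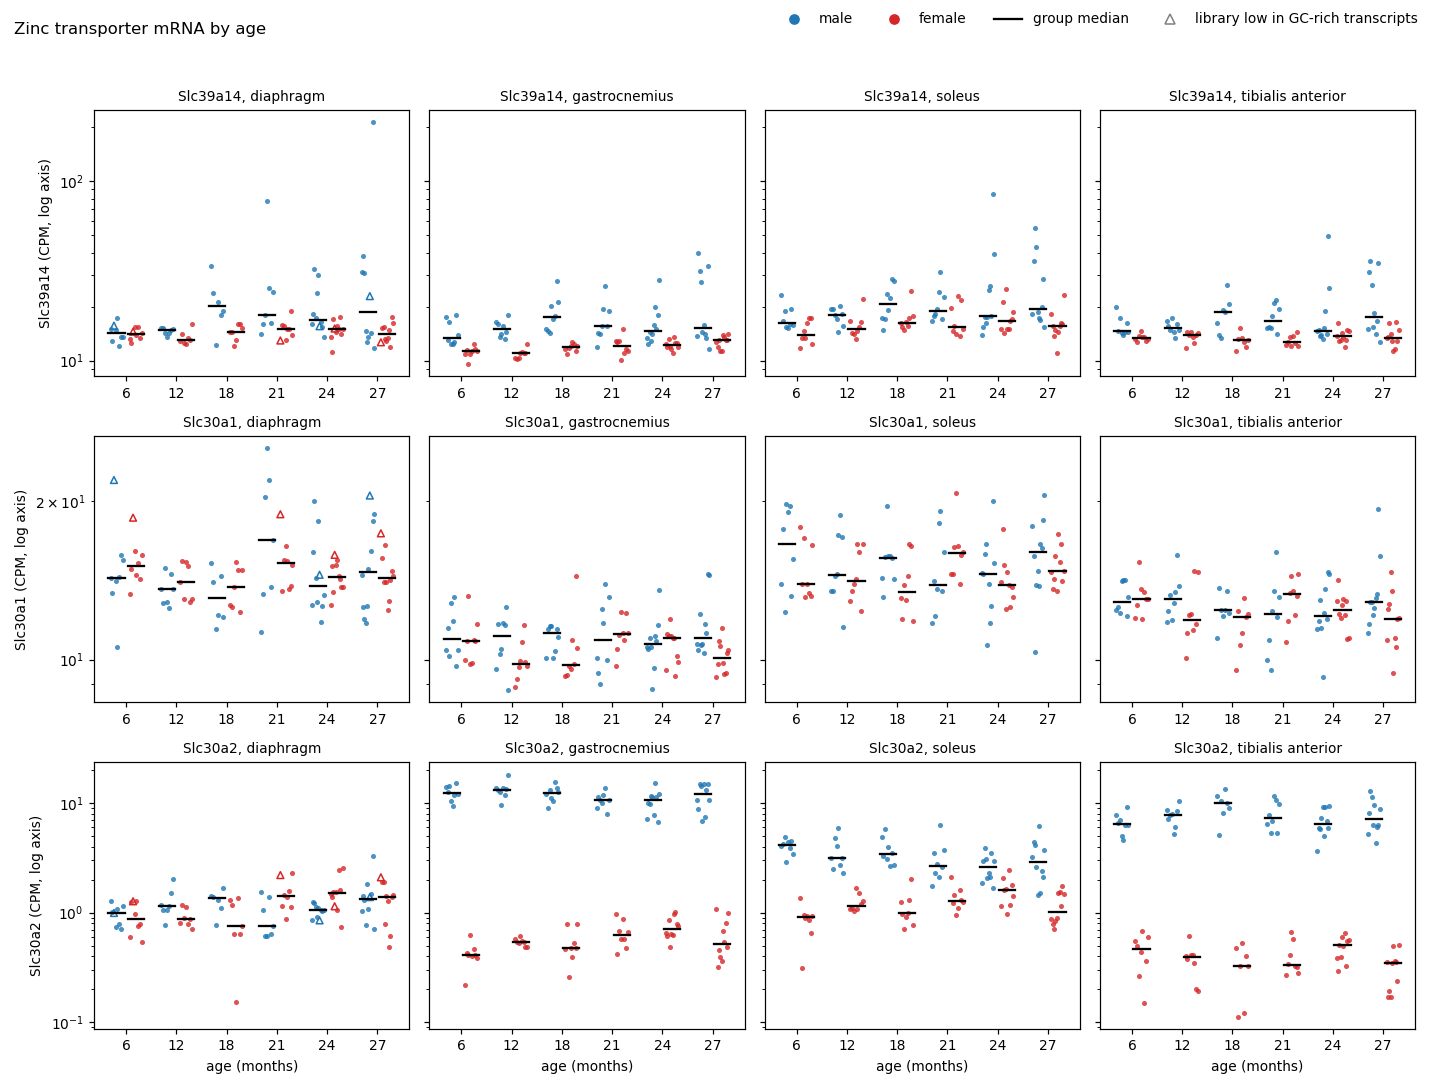
Slc39a14, Slc30a1 and Slc30a2 levels (CPM, log axis) of every library by age in months, for each muscle and sex, with black bars at the group medians and triangles for the 7 libraries low in GC-rich transcripts. Male and female Slc30a2 are apart at every age in gastrocnemius and tibialis anterior (at least 3.67 CPM in males, at most 1.09 CPM in females) and overlap in diaphragm.

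The sex difference of Slc30a2 itself differed between muscles. Relative to diaphragm it was -4.37 ± 0.14 in gastrocnemius, -4.34 ± 0.14 in tibialis anterior and -1.49 ± 0.13 in soleus (edgeR adjusted p = 1.93e-103, 9.66e-100 and 2.44e-22). Soleus lay between, 2.88 ± 0.13 from gastrocnemius and -2.85 ± 0.13 for tibialis anterior from soleus (edgeR adjusted p = 1.51e-65 and 5.04e-62). Tibialis anterior and gastrocnemius differed by 0.03 ± 0.14 (edgeR adjusted p = 1.0). Such interactions were called for 19.3% of genes for gastrocnemius against diaphragm, 15.9% for soleus against diaphragm, 19.3% for tibialis anterior against diaphragm, 17.4% for soleus against gastrocnemius, 2.58% for tibialis anterior against gastrocnemius and 14.0% for tibialis anterior against soleus. The neighbouring genes Grrp1, Pdik1l, Trim63, Extl1, Pafah2 and Stmn1 had sex differences of at most 0.44 in size, and none was called. Among the other members Mtf1 differed from its diaphragm value by 0.15, 0.12 and 0.13 in gastrocnemius, soleus and tibialis anterior (edgeR adjusted p = 0.00156, 0.0189 and 0.00787), under the fold limit.

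In females Slc30a2 was called higher with age in gastrocnemius and soleus, at 21 and 24 months. In gastrocnemius it was at 0.218, 0.411 and 0.620 CPM at 6 months and 0.485, 0.707 and 1.01 CPM at 24 months, with 7 of 10 libraries above the young group and a change of 0.82 ± 0.20 (edgeR adjusted p = 0.00268). In soleus it was at 0.315, 0.910 and 1.35 CPM and 0.972, 1.61 and 2.47 CPM, with 6 of 9 above and a change of 0.87 ± 0.22 (edgeR adjusted p = 0.00243). At 21 months the changes were 0.65 ± 0.21 and 0.66 ± 0.22 (edgeR adjusted p = 0.0288 and 0.0262). The trends were 0.32 and 0.27 per doubling of age (edgeR adjusted p = 0.00229 and 0.0204). At 27 months the changes, 0.56 ± 0.20 and 0.42 ± 0.21, were not called (edgeR adjusted p = 0.032, under the fold limit, and 0.169). Female diaphragm and tibialis anterior were not called at any age, with changes of 0.51 ± 0.28 and -0.45 ± 0.27 at 27 months. The older female levels were still under the lowest male value in gastrocnemius.

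The metallothioneins were also higher in males, averaged over the ages. The female minus male difference of Mt1 was -0.69 ± 0.23 for diaphragm, -0.96 ± 0.16 for gastrocnemius, -0.66 ± 0.15 for soleus and -1.13 ± 0.19 for tibialis anterior (edgeR adjusted p = 0.0232, 1.75e-07, 0.00026 and 3.96e-07). For Mt2 it was -1.39 ± 0.28, -1.32 ± 0.21, -0.94 ± 0.25 and -1.73 ± 0.27 (edgeR adjusted p = 0.000173, 4.98e-08, 0.00225 and 3.83e-08). The ranges overlapped in all 4 muscles, and the medians were closer than these differences of group averages, at 11.8 CPM in male and 9.42 CPM in female gastrocnemius for Mt1 and at 7.23 and 6.43 CPM in tibialis anterior. At 6 months the male and female medians of Mt1 were 36.1 and 32.6 CPM in diaphragm and 9.06 and 8.49 CPM in gastrocnemius. They were 22.6 and 19.9 CPM in soleus and 6.03 and 6.24 CPM in tibialis anterior. Those of Mt2, in the same order of muscles, were 8.15 and 7.49, 3.56 and 3.20, 6.31 and 7.56, and 2.30 and 2.15 CPM. No sex contrast was fitted at 6 months alone. Limma-voom did not call Mt1 in diaphragm (-0.46) or soleus (-0.55) or Mt2 in soleus (-0.49). Slc39a14 was lower in females in all 4 muscles by 0.58, 0.51, 0.40 and 0.42 on the log2 scale, under the fold limit (edgeR adjusted p = 0.00026, 8.66e-13, 6.63e-05 and 3.74e-08). Mtf1 was 0.13, 0.10 and 0.10 higher in female gastrocnemius, soleus and tibialis anterior, and Slc30a1 differed by at most 0.07 in size (smallest edgeR adjusted p = 0.0673). Over the 6 genes, 2 were called in diaphragm (5.18% of all genes) and 3 in each of gastrocnemius (8.17%), soleus (3.97%) and tibialis anterior (5.27%).

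Whether the change from 6 to 27 months differed between the sexes was tested directly. Of 24 tests 0 were called by edgeR, with 12 at an unadjusted p under 0.05, and 0 by limma-voom, with 2. The smallest adjusted p was that of Mt1 in gastrocnemius, with a difference of -1.53 ± 0.54 (edgeR adjusted p = 0.132), and the difference for Mt2 was -3.28 ± 0.94 in diaphragm (edgeR adjusted p = 0.307). Among all genes 1.73% were called in tibialis anterior, 1.6% in gastrocnemius, 0.855% in soleus and 0.0% in diaphragm. A rise seen in 1 sex was therefore not shown to be particular to it.

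Mt1 and Mt2 moved together. After group means were removed, Pearson's r was 0.952, 0.964, 0.940 and 0.981 in the male muscles, in the order diaphragm, gastrocnemius, soleus, tibialis anterior, and 0.967, 0.795, 0.880 and 0.807 in females (48 to 52 libraries each, Spearman's rho 0.672 to 0.969). Each had a permutation p of 1e-05, the smallest the resampling can give, and an adjusted p of 2.18e-05 over 24 relations. Without the 2 farthest libraries r was 0.777 to 0.978, and within runs of sample numbers 0.779 to 0.978. In female diaphragm r was 0.703 without the libraries low in GC-rich transcripts. The 2 genes are near copies of each other, and the sources used here do not give how reads shared between them were counted.

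The mean of Mt1 and Mt2 was also set against Fkbp5, which glucocorticoids induce. In males r was 0.692, 0.591, 0.732 and 0.517 (rho 0.744, 0.655, 0.780 and 0.642, adjusted permutation p of at most 0.00024), and in females 0.374, 0.329, 0.215 and 0.413 (rho 0.398, 0.238, 0.298 and 0.410, adjusted permutation p = 0.0123, 0.0249, 0.154 and 0.00486). Without the 2 farthest libraries r was 0.551 to 0.755 in males and 0.245 to 0.551 in females, and within runs of sample numbers 0.582 to 0.735 and 0.291 to 0.507. Against the summed hepatocyte list r was -0.378 in male diaphragm, -0.289 in male gastrocnemius and -0.310 in female diaphragm (adjusted permutation p = 0.0195, 0.0497 and 0.0397) and not past 0.05 elsewhere. The diaphragm values were 0.02 and -0.03 without the 7 libraries low in GC-rich transcripts, and no rho passed an adjusted p of 0.05.

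Over all libraries, as a description, the genes most like Mt1 after group means were removed, among 14182 genes, were Mt2 (r = 0.945), Stat3 (0.850), Il4ra (0.799), Sbno2 (0.762) and Tnfrsf1a (0.757), which include a signal transducer of interleukin-6 and a receptor of tumour necrosis factor. For Mt2 they were Mt1, Stat3 (0.844), Il4ra (0.823), Map3k6 (0.764) and Tubb6 (0.746). For Slc39a14 they were Srxn1 (0.752), Pvr (0.717) and Mt2 (0.708). Without the 7 diaphragm libraries Stat3 was among the nearest of Mt1 (0.794), Mt2 (0.809) and Slc39a14 (0.821). The others nearest to Mt1 were then Mt2, Osmr (0.803), Slc39a14 (0.802) and Ifi205 (0.760), so that Il4ra, Sbno2 and Tnfrsf1a fell out. Srxn1 and Pvr fell out for Slc39a14. Over all libraries Mtf1 was most like Polr2m (0.711), Tex2 (0.698) and Eif4g1 (0.697), none of which stayed without the 7. Slc30a1 was most like Prrc2c (0.501), BC005537 (0.480) and Chd1 (0.465) over all libraries. The nearest genes of Slc30a2 were Syt12 (0.382), Ankrd6 (0.326) and Musk (0.312). Mt1 and Mt2 gave 0.675 and 0.708 with Slc39a14, and 0.164 and 0.091 with Mtf1. These libraries share depth, collection day and, in the hindlimb, linked sample numbers.

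The other genes of the pathway were read from whole lists of their families. Of 8 further zinc exporters, 1 was called with age, Slc30a10 in male diaphragm at 21 months (4.83 ± 1.37, edgeR adjusted p = 0.021). It was at a median of 0.0522 CPM and a highest value of 14.7 CPM there, and was not called without the libraries rich in hepatocyte RNA. Of 13 further importers, Slc39a8 (ZIP8), the closest relative of Slc39a14, was called higher in 5 of 8 combinations, by 0.81 in male gastrocnemius, 0.84 in male tibialis anterior and 0.81 in female tibialis anterior at 27 months, 0.93 in male soleus at 24 months and 0.77 in female gastrocnemius at 18 months. It was at medians of 0.934 to 1.32 CPM in the limb muscles, where all of these calls lay. In diaphragm, where it was not called higher, its medians were 22.0 CPM in males and 21.6 CPM in females. Without the 7 libraries low in GC-rich transcripts, all of diaphragm, it was called lower in 1 combination, a diaphragm one. Slc39a4 was called in female gastrocnemius at 18 months (2.36 ± 0.56, edgeR adjusted p = 0.00256), at a median of 0.0523 CPM. Mt3, a metallothionein known from brain, was called in 4 of the 7 combinations in which it was tested, by 1.82 ± 0.40 in male tibialis anterior at 27 months (edgeR adjusted p = 0.00087) and by 1.00, 1.12 and 1.19 in male gastrocnemius, female gastrocnemius and female tibialis anterior, at medians of 0.0854 to 0.155 CPM. Mt4 was not tested.

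Lists of genes induced by the signals that act on metallothioneins gave these counts. Beside them, and beside the family lists above, stand the shares of all genes called higher at any older age. In the order diaphragm, gastrocnemius, soleus, tibialis anterior these were 8.02, 5.91, 2.17 and 6.34% in males. In females they were 1.01, 7.66, 3.04 and 7.0%. Of 7 NRF2 targets, 5, 3, 5 and 2 were called higher in males and 0, 1, 4 and 1 in females, in the order diaphragm, gastrocnemius, soleus, tibialis anterior. Their median 27-month change was 0.57, 0.15, 0.75 and 0.47 in males and 0.24, 0.05, 0.51 and 0.17 in females, where that of all genes was -0.03 to 0.03. Srxn1, sulfiredoxin, was called in 6 combinations, with 1.71 ± 0.43 in male diaphragm at 27 months, the cystine transporter gene Slc7a11 in 5 (4 without the libraries rich in hepatocyte RNA), and Nqo1 and Hmox1, which encode a quinone reductase and heme oxygenase, in 3 each. Of 8 acute phase and interleukin-6 genes, 3, 2, 0 and 2 were called higher in males and 0, 0, 1 and 1 in females, with median changes of 0.86, 0.69, 0.69 and 0.43 in males and 0.02 to 0.08 in females. Lcn2, lipocalin-2, was called in 3 combinations. Saa3, an acute phase protein, changed by 5.32 ± 1.20 in male diaphragm at 27 months (edgeR adjusted p = 0.00597) and Socs3 by 3.03 ± 0.61 in male gastrocnemius at 21 months (edgeR adjusted p = 0.000737). Of 9 glucocorticoid-induced genes, 2 were called higher in each male muscle, led by Errfi1 (2.03 to 2.59 at 21 months) and Ddit4 (called in 3 muscles, or 2 without the libraries rich in hepatocyte RNA), and 1 in female diaphragm, while 1 was called lower in male gastrocnemius and 1 in female soleus. Their median changes at 27 months were 0.08 to 0.39 in males and -0.31 to -0.17 in females. Of 5 iron genes, Tfrc, the transferrin receptor, was called lower in 7 of 8 combinations, while the iron exporter gene Slc40a1 was called higher in 1 and lower in 1. For counts called lower, no share of all genes was computed.

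Other cell markers stood beside these results as follows. Macrophage markers, summed over 6 genes, had a median of 167 CPM in diaphragm, 65.8 in soleus, 55.9 in gastrocnemius and 38.0 in tibialis anterior. In males at 24 months replicate 8, on which the Mt2 calls of soleus and tibialis anterior rested, held the most in each hindlimb muscle, at 200.2 CPM in gastrocnemius, 364 CPM in soleus and 183 CPM in tibialis anterior, against 43.2 to 69.7, 47.1 to 85.5 and 29.0 to 73.0 CPM in the other 9. The other high Mt1 libraries at that age, replicates 5, 6 and 9, were at 65.7 to 84.7 CPM in soleus and 40.8 to 54.0 CPM in tibialis anterior, within the range of the remaining 6. In gastrocnemius replicates 5 and 9 were at 68.8 and 69.7 CPM, above the remaining 6 (43.2 to 63.0 CPM), and replicate 6 was at 47.5 CPM. At 27 months replicate 1 of male gastrocnemius held 172 CPM, against 55.6 to 79.7 CPM in the other 9, whereas replicates 2, 3 and 8, also high in Mt1, held 58.1 to 64.7 CPM. In male diaphragm at 27 months replicate 8, on which the Mt1, Mt2 and Slc39a14 changes rested, held 274 CPM and replicate 2, also high in Mt1, held 295 CPM, against 147.5 to 217 CPM in the other 8, which include the high Mt1 replicates 0 and 1 (194 and 147.5 CPM). In female soleus at 24 months replicate 3, on which both metallothionein calls rested, held 55.6 CPM, within the range of 46.7 to 120 CPM of the other 8. Adipocyte genes (6) summed to a median of 120 CPM in diaphragm and 9.73 CPM in tibialis anterior, and blood genes (5) to 322 and 154 CPM. The part of these cells in the levels of Mt1 and Mt2 was not tested.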

How the data were processed

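RNA of 407 muscles was sequenced by the authors as strand-specific, ribosomal RNA-depleted, paired-end libraries, and the deposited counts are raw read counts per gene from ArrayStudio (version not given in the sources used here) on mm10 with a RefSeq-based in-house gene model. The sources used here do not give whether counting used strand or how shared reads were treated. Of 25091 rows, 633 that share 1 of 329 symbols with another row were left out (0.0335% of counts). No 2 libraries were identical, and 0 columns of sample values were left unused. The authors worked on each sex and muscle separately with limma, every older age against 6 months, with a fold limit of 1.5. They also used the stricter Bonferroni adjustment and kept only genes with a linear or logistic trend on age, a rule not used here. By those rules the paper reports no age-related change of Mt1 or Mt2 in male mouse muscles.

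The counts were tested here in the same layout with edgeR 4.0.16 (R 4.3.3) by the quasi-likelihood test after filterByExpr and trimmed mean of M-values scaling, with Benjamini-Hochberg adjustment over all tested genes (14487 to 16193 per sex and muscle). A gene was called at a fold over 1.5 and an adjusted p under 0.05. Trends used log2 age and no fold limit. Sex contrasts were fitted within a muscle, and muscle contrasts over all 407 libraries. Correlations used 100000 permutations, two-sided. Limma 3.58.1 (voom), DESeq2 1.42.0, RLE size factors, no filter, and fits without doubtful libraries were alternatives. On data simulated for male gastrocnemius at 27 against 6 months, 58% of genes changed 1.5-fold, 96% of those changed 2-fold and 98% of those changed 4-fold were called, with 8 of 14922 unchanged genes. The changed genes were drawn at random from expressed genes. The median biological coefficient of variation there was 0.132, against 0.707 for Mt1 and 0.886 for Mt2, so the shares do not give the power for the metallothioneins. Totals per library were 38583802 to 300089909 counts. Values after ± are standard errors of the fitted difference between groups, and do not give the range of the libraries.

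The named genes were the 6 members and, from each pathway list, up to 4 genes called in the most of the 8 sex and muscle combinations. The libraries low in GC-rich transcripts and the same-number relation were taken up after the data had been seen. Members and lists were chosen with earlier results of these data known. Nearest genes were ranked by Pearson's r of residual log2 CPM. Replicate numbers were checked for pairing over the 40 age contrasts. In none did every pair of same-numbered libraries correlate over 0.1, so ages were not treated as paired. Coordinates and promoter sequences came from RefSeq on GRCm38.p6, and exon lengths and GC content from GENCODE exons of the same genome.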

Additional observations from a re-analysis of the deposited data

Results flagged for a closer look

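Within each gene, sex, muscle and age, the lowest or highest library was set against the rest of its group by Dixon's criterion. Of 288 groups, 34 (11.8%) held a library that stood apart, where chance gives about 1 in 20. They were 9 for Mt1, 9 for Mt2, 6 for Slc39a14, 5 for Mtf1, 3 for Slc30a1 and 2 for Slc30a2, with 17 at the high and 17 at the low end, and 11 of the 17 low ones were diaphragm libraries low in GC-rich transcripts. The part of that property in the values was not tested.

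Low Mt1 was found in female diaphragm in replicates 2 at 6 months (2.12 CPM), 0 at 21 months (2.99 CPM), 3 at 24 months (3.11 CPM) and 0 at 27 months (1.94 CPM), and in replicate 2 of male diaphragm at 6 months (1.41 CPM). Mt2 was low in the same 5 libraries, at 0.138, 0.379, 0.609, 0.221 and 0.783 CPM. Mtf1 was low in replicate 0 of female diaphragm at 27 months, at 16.4 CPM.

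High Mt1 was found in female soleus in replicates 7 at 12 months (43.5 CPM) and 3 at 24 months (145 CPM), where Mt2 was at 32.1 and 94.6 CPM. High values also stood in female tibialis anterior for Mt1 at 21 months (replicate 4, 9.86 CPM) and for Mt2 at 12 months (replicate 7, 6.64 CPM), in male tibialis anterior for Mt1 at 6 months (replicate 0, 29.4 CPM) and in male gastrocnemius for Mt2 at 12 months (replicate 4, 5.19 CPM). For Slc39a14 they were replicate 7 at 12 months in female gastrocnemius (12.3 CPM) and soleus (22.2 CPM), replicate 6 at 18 months in female soleus (24.5 CPM), male diaphragm replicates 3 at 21 months (77.9 CPM) and 8 at 27 months (214 CPM), and male tibialis anterior replicate 8 at 24 months (49.4 CPM). Slc30a1 stood high in female gastrocnemius at 18 months (replicate 6, 14.4 CPM), female soleus at 21 months (replicate 3, 20.7 CPM) and male soleus at 18 months (replicate 3, 19.6 CPM). Replicate 7 at 12 months thus stood high in 3 female hindlimb muscles for 1 or more genes.

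Other low values were those of Mtf1 in female soleus at 27 months (replicate 0, 24.2 CPM), male soleus at 18 months (replicate 6, 22.5 CPM) and 24 months (replicate 8, 18.4 CPM) and male tibialis anterior at 27 months (replicate 8, 24.9 CPM), and those of Slc30a2 in female diaphragm at 18 months (replicate 3, 0.152 CPM) and female gastrocnemius at 6 months (replicate 0, 0.218 CPM). The male soleus library low in Mtf1 at 24 months held the highest Mt1 and Mt2 of male soleus.

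The female minus male difference itself differed between muscles, by the interaction term of edgeR, for Slc30a2 and Mtf1. For Slc30a2 the log2 difference was -4.37 for gastrocnemius minus diaphragm, -1.49 for soleus minus diaphragm, -4.34 for tibialis anterior minus diaphragm, 2.88 for soleus minus gastrocnemius and -2.85 for tibialis anterior minus soleus. For Mtf1 it was 0.15, 0.12 and 0.13 for gastrocnemius, soleus and tibialis anterior minus diaphragm.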

How the results depend on the processing

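Of the 14 age calls, limma-voom gave 5, all female, the replicate block gave 7 (2 male, 5 female), Bonferroni adjustment gave 3 and an adjusted p limit of 0.01 gave 7. These were all among the 14 for limma-voom and the block. DESeq2 and RLE size factors gave 15 calls, no filter on low counts 13, the run of sample numbers as a term 12, and the fits without libraries rich in hepatocyte RNA or without the 7 low in GC-rich transcripts 14. With the run as a term, 3 changes reversed, to -0.14 (Mt1, male diaphragm, 27 months), -0.55 (Mt2, male soleus, 24 months) and -0.31 (Mt2, male tibialis anterior, 24 months), and the cause was not tested. Leaving out, for each call, the 1 library that moved the difference of mean log2 CPM most toward 0 ended 7 of the 14 calls at that age. Choosing it by mean CPM, an alternative added after seeing the data, changed the library for 2 calls, Mt1 in male diaphragm (0.55 in place of 1.77, ended under both) and in female gastrocnemius (0.74 in place of 0.76, held under both). The 17 trends became 10 with the run as a term and 10 with limma-voom, 20 with age in months, 16 without hepatocyte-rich libraries and 19 without the 7. Of the sex contrasts 11 were called and 8 by limma-voom. The 12 muscle calls became 11 to 13 over the alternatives. The correlations past 0.05 went from 18 of 24 to 15 without the 7 libraries.

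Same replicate numbers at different ages did not pair the libraries: medians of the correlation per contrast ran from -0.17 to 0.27, and 58 of 320 libraries correlated best with their own number, so the block is no correction of the calls it ended. For muscles, the edgeR fit with the replicate block was not run because it could not finish, and limma-voom with the number as a random block gave the same 12 calls. The fits cannot separate age from collection day, nor sex from it if the sexes of an age were taken on different days.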
